A study of Mus musculus with 8 samples.

Results

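The genes described here encode the proteins of the cytosolic ribosome, measured by bulk RNA-seq in lung endothelial cells (ECs) of neonatal mice. They were the protein-coding rows of the deposited count table with a ribosomal protein symbol (Rpl or Rps with a number and, for some, a letter, Rplp0 to Rplp2, and Rpsa), which gave 84 of the 54532 rows. Of these 84, 43 encode proteins of the large subunit, 31 proteins of the small subunit, 3 proteins of the P stalk of the large subunit, and 7 are paralogs, second gene copies named after a parent gene (Rps27l, Rpl22l1, Rpl7l1, Rpl36al, Rpl39l, Rpl10l and Rpl3l). The ECs came from wild-type C57BL/6J pups, taken at postnatal day 14. Pups of the normoxia group lived in room air (21% O2) and pups of the hyperoxia group in 80% O2 from postnatal day 0 to day 14, a treatment used to model in mice the bronchopulmonary dysplasia of preterm infants. Each group held 4 libraries, called normoxia 1 to 4 and hyperoxia 1 to 4 after the numbers in their titles, with 16098086 to 18300730 counts each. The labels do not say whether a library was 1 pup or a pool, so p-values measure the spread between these libraries. Per the study's methods, cells bound by CD45 beads were removed and cells bound by CD31 beads were kept, and RNA of other lung cells held back by the beads can be counted too.

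A ribosome reads mRNA in its small subunit and joins amino acids in its large subunit. Each subunit is built largely in the nucleolus from ribosomal RNA and its proteins. The mRNAs of these proteins are among the most abundant of any cell. Most of them start with a run of pyrimidines, the 5′ terminal oligopyrimidine (TOP) tract, through which the kinase mTOR and the protein Larp1 set how strongly they are translated and how long they last. Unassembled Rpl5 and Rpl11 hold back Mdm2, the main inhibitor of p53, which ties ribosome assembly to the p53 response.

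Per gene length, Rplp1 was the most abundant member with a mean of 907 FPKM over the 8 libraries (FPKM is the count scaled to gene length and library total, as deposited by the authors). Rplp0 followed at 572 FPKM, Rps15 at 550.5 FPKM, Rpl36 at 499 FPKM and Rps3a1 at 488 FPKM. The median over the 84 members was 139 FPKM, 54 members lay above 100 FPKM and 8 lay under 10 FPKM. The lowest were the paralogs Rpl36al (0.47 FPKM), Rpl3l (0.261 FPKM) and Rpl39l (0.0519 FPKM), and Rpl10l had no count in any library. Rpl13a (9.91 FPKM), Rps10 (2.98 FPKM) and Rpl24 (2.28 FPKM) also lay low. The exons of these 3 genes overlap those of other genes on the same strand over 35.4% (3 genes together), 20.6% and 47.0% of their length, and whether reads there were counted is not stated in the sources used here. Rps10 also has a near-identical copy, the processed pseudogene Rps10-ps2, which was counted at 92.1 ± 8.04 CPM in normoxia against 7.501 ± 0.967 CPM for Rps10 (SD, n = 4 each), so the level of Rps10 alone is uncertain. The log2 fold change of Rps10 was -0.23 alone and -0.13 with the copy added, and neither passed the test (adjusted p = 0.17 and 0.145). The filter on low counts kept 81 of the 84 members and dropped Rpl3l, Rpl39l and Rpl10l.

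In hyperoxia 26 of the 81 tested members were lower and 4 were higher than in normoxia, at an adjusted p under 0.05 in edgeR's quasi-likelihood test (Benjamini-Hochberg over all 15564 genes tested). Over all genes tested, 17.1% were called lower and 18.5% higher, against 32.1% and 4.94% of the members. The sizes were small: 76 of the 81 members had a log2 fold change under 0.35 in size. The median log2 fold change (hyperoxia relative to normoxia) was -0.14 over the 81 members and -0.0040 over all genes tested. A negative value was found for 72 of the 81 members and for 7853 of the 15564 genes tested. The members varied together from library to library, so their signs are not independent of each other. Among small subunit genes 16 of 31 were called lower and 2 higher (median -0.20), among large subunit genes 9 of 43 lower and none higher (median -0.13), among the 3 P stalk genes none either way, and among the 4 tested paralogs 1 lower and 2 higher; the difference between the subunits was not tested. With a log2 fold change of at least 1 asked for as well, 1 member was higher (Rps27l) and 1 was lower (Rps27), where 5.62% and 1.36% of all genes passed.

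**Figure D1:**
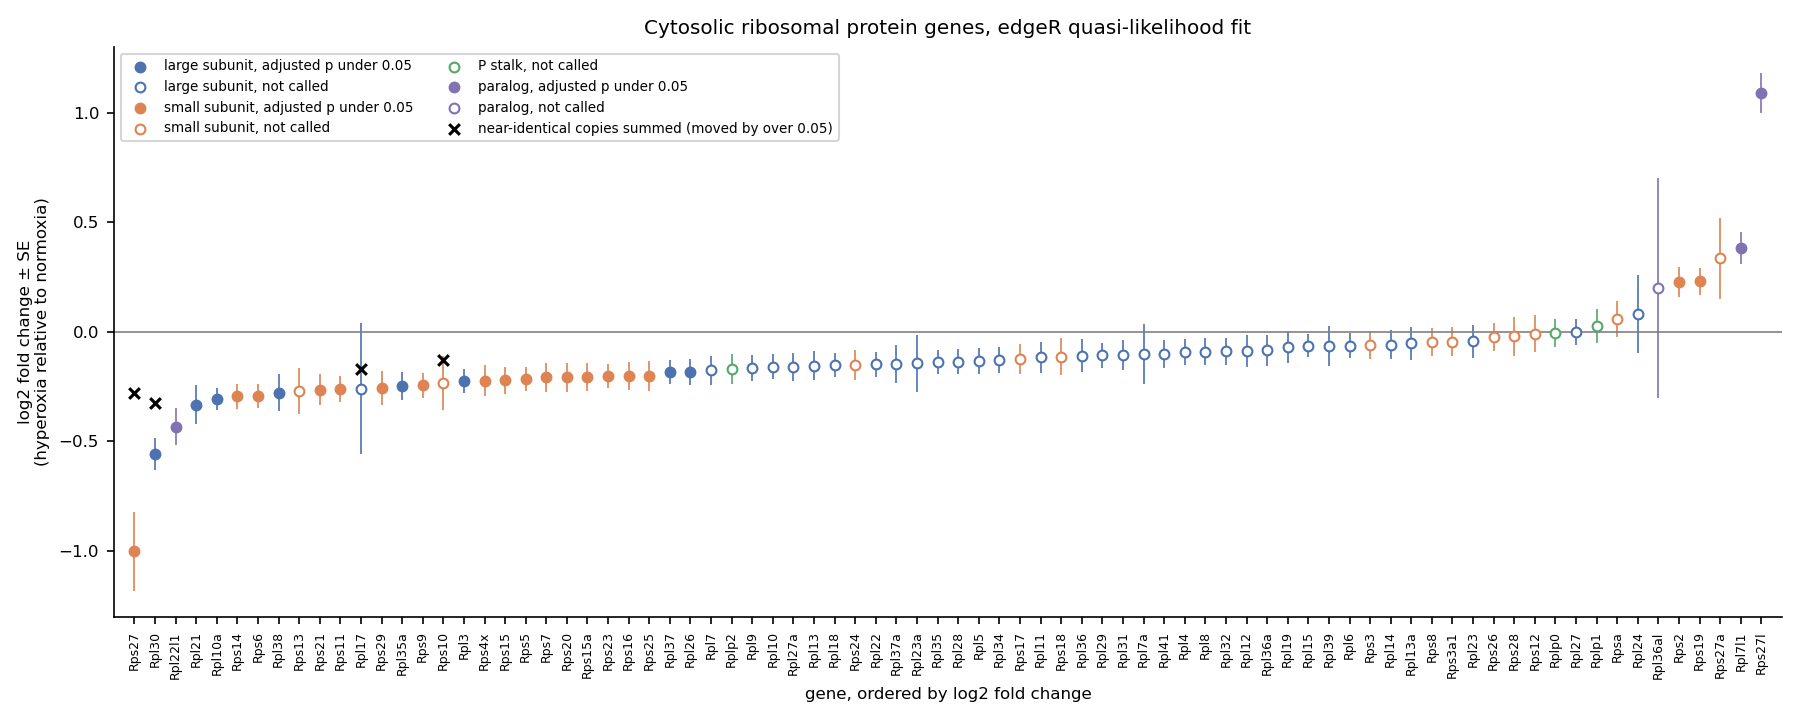
Log2 fold change of tested members, except one not reported here (y axis, hyperoxia relative to normoxia, bars are ± 1 SE), ordered from the lowest to the highest, with filled points for genes at an adjusted p under 0.05. Most points lie between 0 and -0.35, Rps27l stands alone at the top at 1.09, and Rps27 at -1.003 moves to -0.28 once its near-identical copy is added to it (cross).

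The 4 libraries of a group did not overlap those of the other for 24 members in CPM (counts scaled to a common normalized library size), with 21 lower and 3 higher in hyperoxia. Over all genes tested, 17.6% were lower and 17.8% higher without overlap. Single libraries moved the count of lower members. Without hyperoxia 3 it was 16, without hyperoxia 2 it was 16, and without normoxia 2 it was 40, while the count of higher members was 4 in those 3 fits, with Rps27a in place of Rps2 without hyperoxia 2. The share of all genes called in those fits is not given here, so these counts are not set against a share. In every fit that left out 1 library, 16 of the 26 lower members and 3 of the 4 higher members (Rps27l, Rpl7l1 and Rps19) were still called.

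Together the 84 members took 2.57%, 2.29%, 2.83% and 2.40% of all counts in normoxia 1 to 4, and 2.41%, 2.20%, 2.16% and 2.29% in hyperoxia 1 to 4. The mean share was 2.52 ± 0.237% (SD, n = 4) in normoxia against 2.26 ± 0.110% (SD, n = 4) in hyperoxia, and the groups overlapped. The difference of -0.259 percentage points shrank to -0.156 without normoxia 3. That library was the highest of its group for 73 of the 81 tested members, and normoxia 2 was the lowest for 68. In hyperoxia, library 1 was the highest for 62 members and library 3 the lowest for 55. The members varied together from library to library, also within a group. The SD of log2 CPM over the libraries of a group had a median of 0.119 in normoxia and 0.0755 in hyperoxia over the members, and of 0.145 and 0.125 over all genes tested.

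**Figure D2:**
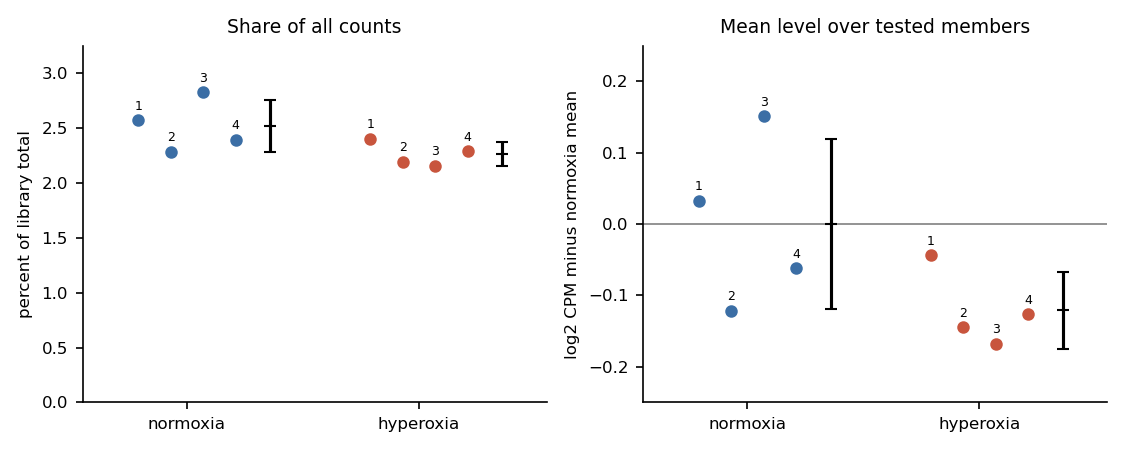
Left, summed counts of the 84 members as percent of the library total. Right, mean log2 CPM of the 81 tested members minus its normoxia mean. Points are libraries with their replicate number, and the bar beside them is the mean ± SD (n = 4 per group). Normoxia 3 is the highest and hyperoxia 3 the lowest library in both panels, and the groups overlap.

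Markers of cell types moved beside these values, where 18.5% of all genes tested were called higher and 17.1% lower. The summed level of 15 EC markers was 19980.0 to 20664 CPM in normoxia and 19224 to 20973 CPM in hyperoxia, with 4 markers higher and 4 lower, and Cdh5 was the most abundant. All 12 markers of alveolar type 2 cells were higher, and their sum was 299 to 447 CPM in normoxia and 913 to 2746 CPM in hyperoxia, with Sftpc, a surfactant protein gene, the most abundant and hyperoxia 3 the lowest hyperoxia library. Of 12 alveolar type 1 markers 9 were higher and 1 was lower, with a median log2 fold change of 2.53. Their sum was 3371 to 3904 CPM in normoxia and 3392 to 3926 CPM in hyperoxia. That sum was led by Cav1, which ECs also express, at a mean of 1930 CPM in normoxia and 1412 CPM in hyperoxia. All 6 aerocyte capillary markers were higher (sum 1849 to 2214 CPM in normoxia and 3462 to 3899.9 CPM in hyperoxia, led by Prx), and of 6 general capillary markers 4 were lower and 1 higher (sum 8644 to 9993 CPM in normoxia and 7169 to 8327 CPM in hyperoxia, led by Ptprb). Of the tested markers 6 of 9 for fibroblasts, with 1 lower (sum 185 to 314 CPM in normoxia and 241 to 496 CPM in hyperoxia), 7 of 8 for mural cells (sum 47.2 to 83.03 CPM in normoxia and 103 to 182 CPM in hyperoxia) and 3 of 3 for mast cells (sum 0.228 to 0.951 CPM in normoxia and 4.24 to 8.99 CPM in hyperoxia) were higher. For macrophages 3 of 10 were higher and 1 lower (sum 129.9 to 202 CPM in normoxia and 136 to 209 CPM in hyperoxia). Among 10 lymphocyte markers none was called (sum 127 to 307 CPM in normoxia and 152 to 276 CPM in hyperoxia), nor was any of 5 neutrophil markers (sum 10.99 to 44.6 CPM in normoxia and 17.6 to 94.5 CPM in hyperoxia). For airway epithelium 1 of 3 was higher (sum 58.4 to 79.9 CPM in normoxia and 78.99 to 110.0 CPM in hyperoxia, with no count for the basal cell keratin Krt5), for mesothelium the only 1 tested was higher (sum 0.0552 to 0.735 CPM in normoxia and 0.859 to 1.998 CPM in hyperoxia), and for platelets and red cells 4 of 7 were lower (sum 122 to 219 CPM in normoxia and 95.02 to 139 CPM in hyperoxia). Of 10 proliferation markers 1 was higher (sum 424 to 598 CPM in normoxia and 497 to 612 CPM in hyperoxia). Mitochondrially encoded genes took 0.864% to 1.05% of counts in normoxia and 1.21% to 1.43% in hyperoxia. The part of these shifts in the ribosomal protein values was not tested, and in bulk RNA fewer cells of a type and less RNA per cell cannot be told apart.

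Rps27l, the paralog of the small subunit gene Rps27 and a known target of p53, rose the most. It was counted at 35.5, 32.3, 44.9 and 37.5 CPM in normoxia 1 to 4 and at 80.3, 81.2, 72.9 and 85.2 CPM in hyperoxia 1 to 4. All hyperoxia libraries lay above all normoxia libraries, with means of 37.5 ± 5.33 and 79.9 ± 5.14 CPM (SD, n = 4 each; log2 fold change 1.09 ± 0.092 SE, adjusted p = 9.66e-06). Per gene length Rps27l had 45.6 FPKM in normoxia and 97.4 FPKM in hyperoxia.

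Rps27 encodes a zinc-binding protein of the small subunit. It lies at chr3:90212522-90213651, minus strand (GRCm38), and Rps27l lies at chr9:66946086-66949516, plus strand. The coding sequences of both genes, from the annotated principal transcripts of GENCODE M21, are shown because they bear on whether reads of the 2 genes can be told apart. Both are exonic, run 5′ to 3′ and hold 255 bases, and capitals mark the bases that differ between them.
Rps27l: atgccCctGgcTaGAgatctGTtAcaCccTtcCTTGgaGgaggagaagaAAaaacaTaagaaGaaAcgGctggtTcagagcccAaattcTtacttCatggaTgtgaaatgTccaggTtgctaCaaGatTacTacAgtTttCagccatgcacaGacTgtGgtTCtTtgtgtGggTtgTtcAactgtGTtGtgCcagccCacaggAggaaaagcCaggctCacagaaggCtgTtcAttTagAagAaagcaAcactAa
Rps27: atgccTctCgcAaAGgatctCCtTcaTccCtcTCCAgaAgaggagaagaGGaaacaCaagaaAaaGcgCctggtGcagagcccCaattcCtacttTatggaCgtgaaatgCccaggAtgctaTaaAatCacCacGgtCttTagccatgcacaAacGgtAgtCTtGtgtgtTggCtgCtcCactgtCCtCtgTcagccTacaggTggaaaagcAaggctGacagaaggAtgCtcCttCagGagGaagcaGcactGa
Of the 255 positions 194 (76.1%) were identical and 61 differed, 53 of them at the last base of a codon. The longest identical run was 11 bases. No 150-base stretch of Rps27l, the length of a sequencing read here, occurred in the transcripts of any other gene.

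Rps27 fell by 1.003 on the log2 scale. It was counted at 318, 255, 358 and 297 CPM in normoxia 1 to 4 and at 143, 137, 219.7 and 112 CPM in hyperoxia 1 to 4. The groups did not overlap, and hyperoxia 3 was the highest of its group (means 307 ± 43.1 and 153 ± 46.4 CPM, SD, n = 4 each; SE 0.18, adjusted p = 0.00146). Another gene, Rps27rt, moved the other way. Rps27rt is a single-exon copy of Rps27 at chr9:114982366-114982739 on the minus strand, listed as protein-coding, whose symbol falls outside the rule. Its coding sequence was identical to that of Rps27 at all 255 bases, and 87.1% of its 150-base stretches occurred in Rps27. Rps27rt had 34.2, 77.3, 105 and 62.4 CPM in normoxia 1 to 4 and 185, 169, 71.5 and 202 CPM in hyperoxia 1 to 4 (log2 fold change 1.17 ± 0.35 SE, adjusted p = 0.0228). It was high in hyperoxia 1, 2 and 4, where Rps27 was lowest, and low in hyperoxia 3. The sum of both genes was 352, 332, 463 and 359 CPM in normoxia and 329, 306, 291 and 314 CPM in hyperoxia, and every hyperoxia library lay under every normoxia library. With both rows counted as 1 gene, the fall was much smaller (log2 fold change -0.28 ± 0.094 SE, adjusted p = 0.038). How reads that match several genes were counted is not stated in the sources used here, so the split between Rps27 and Rps27rt is uncertain, and their sum may miss reads; Rps27l shares no such stretch with either.

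**Figure D3:**
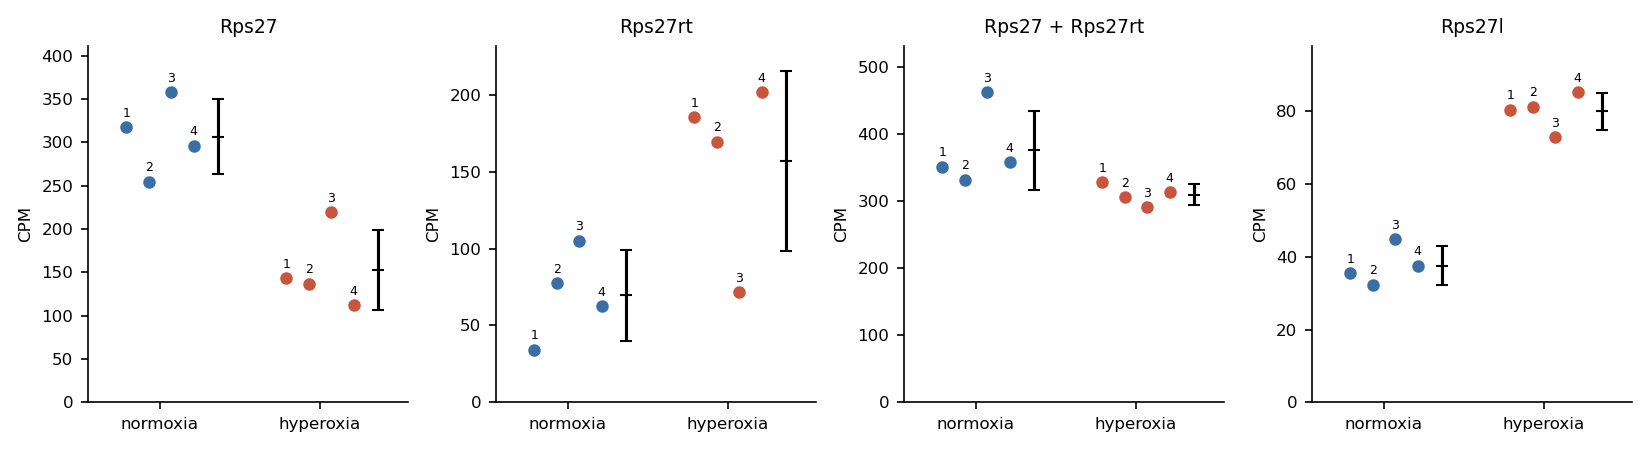
CPM of Rps27, its copy Rps27rt, the sum of both, and the paralog Rps27l (y axes start at 0). Points are libraries with their replicate number, and bars are the mean ± SD (n = 4 per group). Hyperoxia 3 is the highest hyperoxia library for Rps27 and the lowest for Rps27rt, the sum varies less in hyperoxia than either row, and Rps27l is separate between the groups.

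Rpl30, a large subunit gene, also fell while near-identical copies rose, and whether reads were split between these rows was not tested. Rpl30 fell from 203, 203, 252 and 221 CPM in normoxia 1 to 4 to 162, 149, 141 and 144 CPM in hyperoxia 1 to 4 (log2 fold change -0.56 ± 0.074 SE, adjusted p = 0.000218). All hyperoxia libraries were lower. Its copies Gm12191 and Rpl30-ps10, both annotated as processed pseudogenes, rose (Gm12191 log2 fold change 1.10 ± 0.18 SE, adjusted p = 0.000955; Rpl30-ps10 log2 fold change 1.49 ± 0.45 SE, adjusted p = 0.0249). Added together, the 3 rows gave 230.5, 213, 266 and 235 CPM in normoxia and 198, 184, 179.7 and 192 CPM in hyperoxia, still without overlap (log2 fold change -0.33 ± 0.066 SE, adjusted p = 0.00298). Rpl30 also overlaps an unverified transcript on the opposite strand over 20.4% of its exon length, and whether counting used strand is not stated in the sources used here.

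In all, 70 of the 84 members shared at least one 150-base stretch with another gene, and 10 shared more than 50% of theirs. When 62 near-identical copies were added to the 36 members they resemble, 27 members were lower and 4 higher, where 17.1% and 18.5% of all genes were called, and the median was -0.14. The 1 member gained was Rpl9. Among the 29 tested members that shared under 10% of their 150-base stretches, 13 were lower and 3 higher with a median of -0.17. Among the 11 tested members that shared no such stretch, 4 were lower and 2 higher with a median of -0.0914. Whether these subsets differ from the other members was not tested. Rps6 is an example of heavy sharing, at 82.4% of its stretches, and its log2 fold change was -0.29 with and without its copies. How reads that match several genes were counted is not stated, so sums over copies may miss reads. An unchanged value therefore does not show that sharing had no effect.

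The other large falls described here were closer to each other in size. Rpl22l1, a paralog of Rpl22, had 18.3, 18.5, 19.2 and 20.9 CPM in normoxia 1 to 4 and 13.1, 13.99, 15.7 and 14.1 CPM in hyperoxia 1 to 4, without overlap (log2 fold change -0.43 ± 0.083 SE, adjusted p = 0.00217). Rpl21 had 67.7, 65.7, 76.8 and 60.9 CPM in normoxia and 60.8, 53.3, 46.7 and 54.3 CPM in hyperoxia (log2 fold change -0.33 ± 0.088 SE, adjusted p = 0.0131). For Rpl21 the highest hyperoxia library lay just under the lowest normoxia library.
Rpl10a, the protein of the L1 stalk through which spent tRNA leaves the ribosome, had 259, 242, 278 and 251 CPM in normoxia and 211, 204, 204 and 213 CPM in hyperoxia (log2 fold change -0.31 ± 0.05 SE, adjusted p = 0.000795). Its hyperoxia libraries lay close together (SD 4.55 CPM). Rps14, the small subunit gene whose loss marks the 5q deletion syndrome, had 477, 426, 499.8 and 455 CPM in normoxia and 396, 377, 355 and 386 CPM in hyperoxia (log2 fold change -0.30 ± 0.058 SE, adjusted p = 0.00251). Rps6, the substrate of S6 kinase downstream of mTOR, had 616, 550.3, 653 and 608 CPM in normoxia and 509.6, 481, 494 and 498 CPM in hyperoxia (log2 fold change -0.29 ± 0.055 SE, adjusted p = 0.00191). In both genes no hyperoxia library reached the lowest normoxia library.

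**Figure D4:**
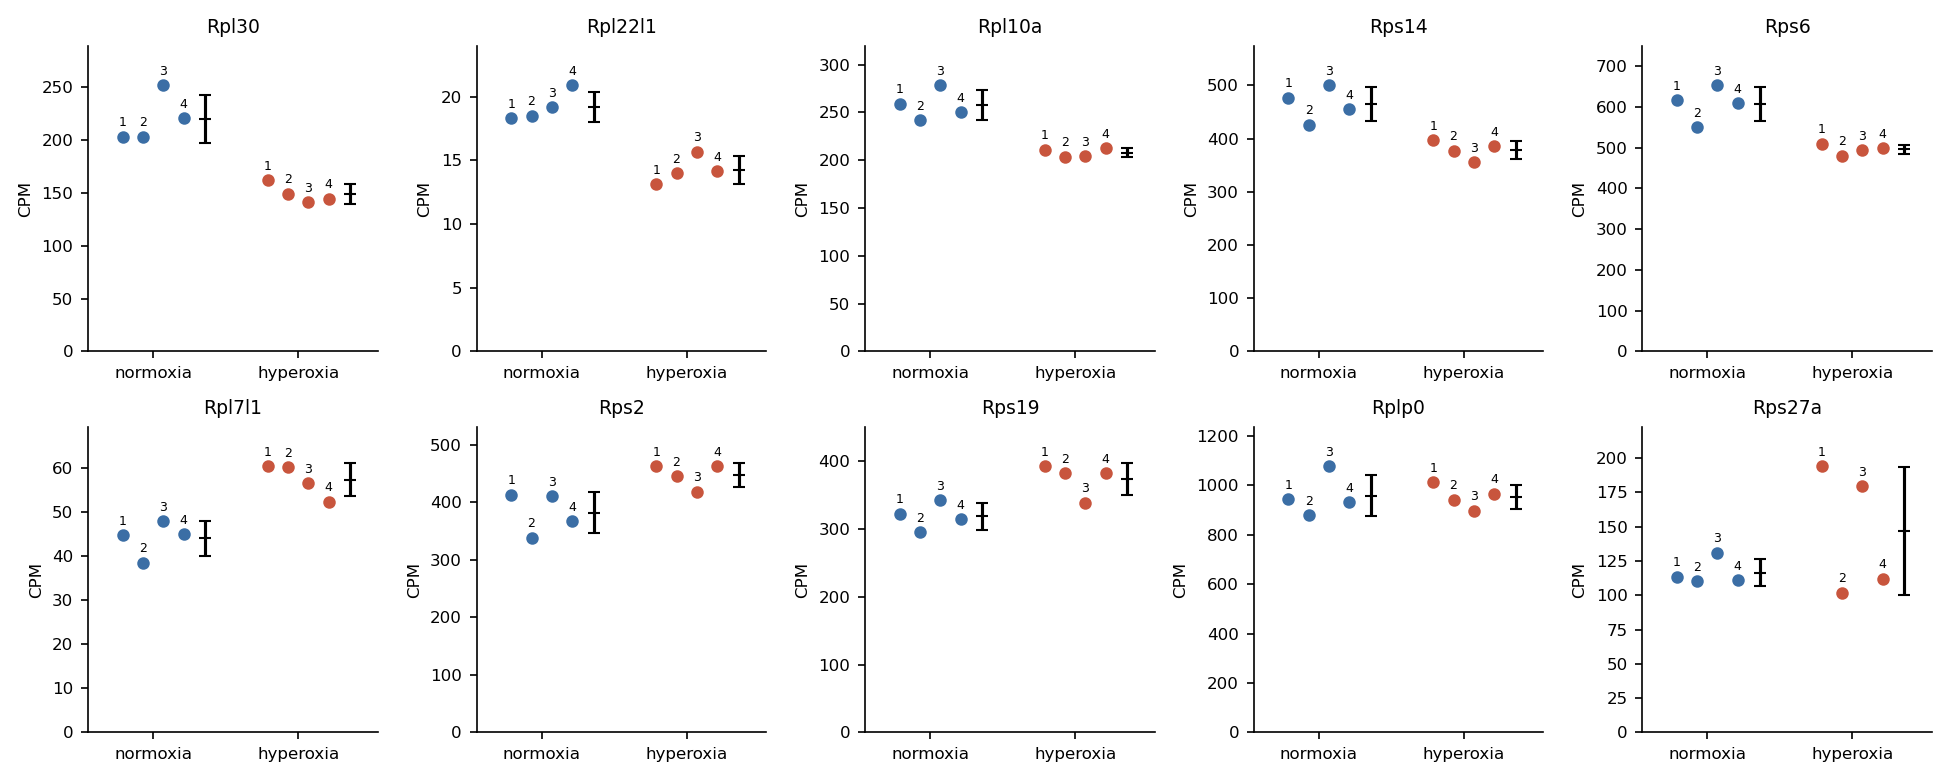
CPM of 10 members in each library (y axes start at 0, points carry the replicate number, bars are the mean ± SD, n = 4 per group). Rpl30, Rpl22l1, Rpl10a, Rps14 and Rps6 were lower in every hyperoxia library, Rpl7l1 and Rps2 higher in every one, Rps19 overlapped by 1 library, Rplp0 overlapped throughout, and Rps27a was high in hyperoxia 1 and 3 only.

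The 18 members with the smallest called falls had log2 fold changes between -0.28 (Rpl38) and -0.18 (Rpl26). Among them, Rpl3, which lines the peptidyl transferase centre, had 537, 484, 568 and 499 CPM in normoxia and 458, 446, 438 and 445 CPM in hyperoxia (log2 fold change -0.22 ± 0.054 SE, adjusted p = 0.00848). Rps15, 1 of the 5 most abundant members, had 392, 351, 411 and 350.0 CPM in normoxia and 336, 322, 305 and 327 CPM in hyperoxia (log2 fold change -0.22 ± 0.061 SE, adjusted p = 0.0163). Neither gene overlapped between the groups. Rps4x, the X-linked small subunit gene, had 557, 495, 622 and 528 CPM in normoxia and 508, 452, 448 and 479 CPM in hyperoxia (log2 fold change -0.22 ± 0.072 SE, adjusted p = 0.0324). Its groups overlapped, and it was called in 3 of the 8 fits that leave out 1 library.

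Of the 4 members called higher, Rpl7l1, a nucleolar relative of Rpl7, followed Rps27l. It had 44.6, 38.5, 47.9 and 44.96 CPM in normoxia 1 to 4 and 60.3, 60.1, 56.5 and 52.3 CPM in hyperoxia 1 to 4, without overlap (log2 fold change 0.38 ± 0.074 SE, adjusted p = 0.00235). Rps2, at the mRNA entry of the small subunit, had 413, 339, 411 and 367 CPM in normoxia and 463, 446, 419 and 463 CPM in hyperoxia (log2 fold change 0.23 ± 0.068 SE, adjusted p = 0.0239). Its lowest hyperoxia library lay just above its highest normoxia library, and the call held in 4 of the 8 fits that leave out 1 library. Rps19, the gene most often mutated in Diamond-Blackfan anaemia, had 322, 295, 343 and 315 CPM in normoxia and 392, 382, 339 and 382 CPM in hyperoxia (log2 fold change 0.23 ± 0.061 SE, adjusted p = 0.013). Hyperoxia 3 was just under normoxia 3, and the other hyperoxia libraries lay above all normoxia libraries.

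The remaining 51 members were not called. Of these, 46 had negative values and their median log2 fold change was -0.10, though the members varied together and their signs are not independent. In the P stalk, which recruits the elongation factors, Rplp0 had 944, 879, 1076 and 932 CPM in normoxia and 1012, 941, 896 and 966 CPM in hyperoxia (log2 fold change -0.0059 ± 0.066 SE, adjusted p = 0.954). Rplp1 (log2 fold change 0.026 ± 0.076 SE, adjusted p = 0.821) and Rplp2 (log2 fold change -0.17 ± 0.068 SE, adjusted p = 0.0756) did not pass the test either. The groups overlapped for all 3.
Rpsa, a small subunit protein also described as a laminin receptor precursor, had 531, 462, 614 and 505 CPM in normoxia and 598, 532, 525 and 542 CPM in hyperoxia (log2 fold change 0.057 ± 0.081 SE, adjusted p = 0.623). For the 2 proteins of the 5S particle that binds Mdm2, the log2 fold change of Rpl5 was -0.13 ± 0.059 SE (adjusted p = 0.108) and that of Rpl11 -0.12 ± 0.07 SE (adjusted p = 0.226). Both overlapped between the groups. Rpl10, which joins the large subunit late (log2 fold change -0.16 ± 0.058 SE, adjusted p = 0.0511), Rpl7 (log2 fold change -0.18 ± 0.065 SE, adjusted p = 0.0556) and Rpl22 (log2 fold change -0.15 ± 0.055 SE, adjusted p = 0.0575) had negative values just beyond the threshold. Without normoxia 2, these 3 genes, Rpl5 and Rplp2 were called lower (adjusted p = 0.0109 to 0.0245). Leaving out other libraries moved the values both ways. Rpl10 was also called without hyperoxia 1 (adjusted p = 0.0272). Without hyperoxia 2 the adjusted p was 0.143 for Rpl10 and 0.157 for Rpl22. Rpl39, at the exit tunnel (log2 fold change -0.064 ± 0.092 SE, adjusted p = 0.629), Rpl36a (log2 fold change -0.084 ± 0.071 SE, adjusted p = 0.387), Rpl36 (log2 fold change -0.11 ± 0.075 SE, adjusted p = 0.287) and Rps3a1 (log2 fold change -0.045 ± 0.066 SE, adjusted p = 0.633) were closer to 0.

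Rps27a, which encodes ubiquitin fused to a small subunit protein, had the largest SD of log2 CPM within hyperoxia (0.470) after the barely counted Rpl36al (0.698). It had 114, 110.0, 131 and 111 CPM in normoxia 1 to 4 and 194, 102, 179.5 and 112 CPM in hyperoxia 1 to 4. Hyperoxia 1 and 3 were high while hyperoxia 2 and 4 lay within or under the range of normoxia (log2 fold change 0.33 ± 0.19 SE, adjusted p = 0.187). Without hyperoxia 2 it was called higher (log2 fold change 0.48, adjusted p = 0.0488), and without hyperoxia 1 the log2 fold change was 0.17 (adjusted p = 0.466). With its 2 copies added, the pattern was the same, at 202, 108, 185 and 118 CPM in hyperoxia. Rps27a overlaps Clhc1 on the opposite strand over 8.11% of its exon length.

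To set each paralog against its parent, the count of the paralog was taken as a percent of the count of the parent within a library, which does not depend on library size. Of 8 pairs, 4 had at least 10 counts of both genes in every library and were tested by exact two-sided permutation of log2 ratios over the 35 possible divisions into 4 and 4, where 0.0286 is the smallest p that 4 against 4 allows. All 4 pairs were at this p, before and after Benjamini-Hochberg adjustment over the 4. Rps27l, Rpl7l1 and Rpl22l1 had separated the groups in CPM already, so for them this p is no independent support. The level of Rps4l on its own is not given here, so its p is not read as independent support either. Rps27l made up 11.2, 12.7, 12.5 and 12.6% of the Rps27 count in normoxia 1 to 4 and 55.99, 59.2, 33.2 and 75.9% in hyperoxia 1 to 4 (log2 ratio difference 2.14). Hyperoxia 3 was the lowest of its group, and with Rps27rt added to the parent the difference was 1.37 (exact permutation p = 0.0286).
Rpl7l1 made up 8.02, 7.42, 7.46 and 8.08% of Rpl7 in normoxia and 11.3, 12.3, 11.3 and 10.6% in hyperoxia (log2 ratio difference 0.56). Rpl22l1 made up 9.32, 10.9, 9.70 and 11.3% of Rpl22 in normoxia and 7.44, 8.63, 9.20 and 8.49% in hyperoxia (log2 ratio difference -0.29). The first ratio was higher and the second lower in every hyperoxia library. The fourth pair was Rps4l, a transcribed processed pseudogene and thus no member, against Rps4x: 6.93, 7.91, 7.30 and 8.40% in normoxia and 5.50, 5.83, 5.87 and 5.93% in hyperoxia (log2 ratio difference -0.40). Counts were too low in the other pairs, at 4 to 18 for Rpl36al, 0 to 2 for Rpl39l, 2 to 17 for Rpl3l and 0 for Rpl10l. In background, Rpl10l and Rpl39l are known from testis and Rpl3l from heart and skeletal muscle. Rpl36al passed the filter on low counts but was not called (log2 fold change 0.20 ± 0.50 SE, adjusted p = 0.788), and its sign changed when normoxia 4 or hyperoxia 3 was left out.

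**Figure D5:**
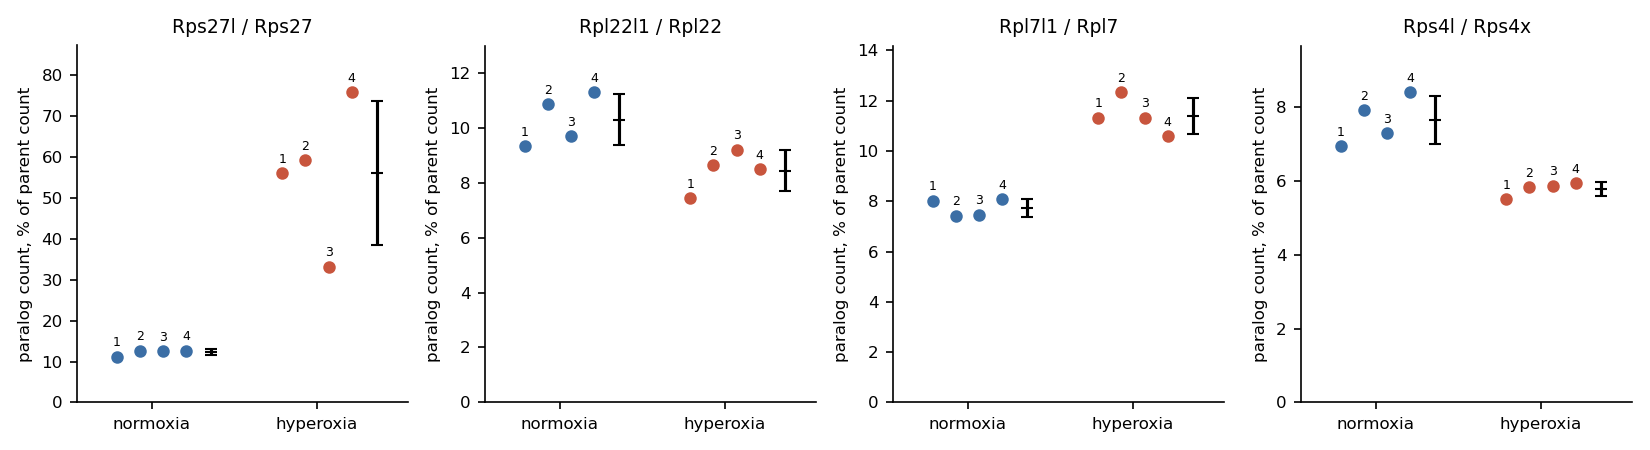
Count of the paralog as percent of the count of its parent gene in each library for the 4 tested pairs (y axes start at 0, points carry the replicate number, bars are the mean ± SD, n = 4 per group). Rps27l to Rps27 and Rpl7l1 to Rpl7 were higher in every hyperoxia library, and Rpl22l1 to Rpl22 and Rps4l to Rps4x lower in every one.

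Start sites were looked at because a TOP tract, by definition, begins at the first base of the mRNA. A tract was a C followed by at least 4 more pyrimidines (C or T), on the gene's own strand, beginning within 10 bases of an annotated RefSeq start (GRCm38.p6). The table of starts held 64 of the 84 members, and 39 of these (60.9%) had such a tract, against 34.4% of all 27025 genes in it. The windows below run from 10 bases before the annotated start to 15 bases from it on, with the tract in capitals. They belong to members described above that were called higher (Rps27l, Rps2, Rpl7l1), called lower (Rps27, Rpl22l1, Rps6) or not called (Rplp2, Rplp0, Rpsa), and tracts occurred in each of these groups.
Rps27l, chr9:66946076-66946100, plus strand: CCTCCCCgccgcctctatcccggaa
Rps27, chr3:90213634-90213658, minus strand: cgctttcgCTCCTTTCCggcggtga
Rpl22l1, chr3:28805498-28805522, plus strand: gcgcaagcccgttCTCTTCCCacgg
Rps6, chr4:86857353-86857377, minus strand: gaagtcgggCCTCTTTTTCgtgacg
Rplp2, chr7:141447641-141447665, plus strand: cagcgtCTTCCTTTCgccgccggac
Rps2, chr17:24720053-24720077, plus strand: gtcgagatctcgcgCTTCTTggagc
Rplp0, chr5:115559457-115559481, plus strand: cgggtttcgaggaccgcctggttct
Rpl7l1, chr17:46782642-46782666, minus strand: gctgcgcaagcgcagtagctgaagc
Rpsa, chr9:120127756-120127780, plus strand: ttatttaaggacgtcatttccggcc
Of the members with a window, 11 of 17 called lower, 3 of 4 called higher and 22 of 40 not called had a tract. A member with several listed starts counted if any of them had a tract. Among those called higher, the tract of Rps27l began 10 bases before its start and was 7 bases long, so it ended before that start. The tract of Rps2 began 4 bases after its start, and that of Rps19 began 6 bases after the last of its listed starts. The median log2 fold change was -0.14 over the 36 tested members with a tract and -0.12 over the 25 without one. Annotated starts can lie some bases from the start used in these cells, and a missing tract says only that these letters were not found in the window. A tract found in a window need not lie at the first base of the mRNA.

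The other genes of the pathway were read from the same fit, where 18.5% of all genes tested were called higher and 17.1% lower. Whether a list differed from these shares was not tested. Among ribosomal proteins outside the symbol rule, Fau, a ubiquitin-like fusion, had 356, 341, 382 and 350.0 CPM in normoxia and 312, 281, 266 and 292 CPM in hyperoxia, without overlap (log2 fold change -0.31 ± 0.058 SE, adjusted p = 0.00188). Rack1, a scaffold on the small subunit, did not pass the test (log2 fold change -0.017 ± 0.064 SE, adjusted p = 0.862). Of 19 further genes known for TOP mRNAs, mostly translation factors, 6 were lower and none higher (median -0.062). Eef1a1, the elongation factor that brings tRNA to the ribosome, had 4808, 4434, 5257 and 4880.3 CPM in normoxia and 4114, 3755, 3872 and 3869.9 CPM in hyperoxia (log2 fold change -0.31 ± 0.057 SE, adjusted p = 0.00172). The helicase Eif4a2 was also lower (log2 fold change -0.25 ± 0.05 SE, adjusted p = 0.00262), and neither gene overlapped between the groups. Among 28 other initiation factors, 5 were higher and 1 lower (median 0.061), with Eif4g2 lower (-0.13 ± 0.044 SE, adjusted p = 0.0397) and Eif3d (0.26 ± 0.068, adjusted p = 0.0115) and Eif1a (0.43 ± 0.091, adjusted p = 0.00395) higher.

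Of 46 ribosome biogenesis genes, 10 were higher and 4 lower (median 0.087), beside 18.5% and 17.1% of all genes tested. Bysl, which acts in assembly of the small subunit, had 22.4, 18.1, 19.2 and 20.5 CPM in normoxia and 27.1, 31.4, 31.5 and 31.7 CPM in hyperoxia, without overlap (log2 fold change 0.60 ± 0.083 SE, adjusted p = 0.00028). Rrp12, a factor in export of both subunits, was higher too (log2 fold change 0.65 ± 0.11 SE, adjusted p = 0.00128), and nucleolin (Ncl), the most abundant gene of the list, did not pass the test (log2 fold change -0.12 ± 0.049 SE, adjusted p = 0.0771). Of the 77 tested mitochondrial ribosomal protein genes, 14 were higher, near the share over all genes, and 3 lower (median 0.064). Mrpl4 was the most abundant (log2 fold change 0.11 ± 0.062 SE, adjusted p = 0.194), while Mrpl24 was lower (log2 fold change -0.52 ± 0.064 SE, adjusted p = 0.000138) and Mrpl19 higher (log2 fold change 0.45 ± 0.11 SE, adjusted p = 0.00735).
In the list of mTOR and Larp1 control, 6 of 25 were higher and 6 lower (median -0.034). Sesn2, a stress-induced inhibitor of mTOR complex 1, rose (log2 fold change 1.48 ± 0.092 SE, adjusted p = 1.27e-06) and its relative Sesn1 fell (log2 fold change -0.64 ± 0.077 SE, adjusted p = 0.000114), while Eif4ebp2, the most abundant, did not pass the test (log2 fold change -0.044 ± 0.053 SE, adjusted p = 0.558). Among 18 genes of ribosomal protein import, assembly and the p53 link, 5 were higher and 1 lower (median 0.11). Cdkn1a, the p53 target that blocks the cell cycle, had 144, 177, 151 and 199 CPM in normoxia and 900.3, 963, 833 and 941 CPM in hyperoxia (log2 fold change 2.44 ± 0.10 SE, adjusted p = 8.44e-08), and the p53 inhibitor Mdm4 was lower (log2 fold change -0.71 ± 0.052 SE, adjusted p = 3.6e-06). Neither overlapped between the groups.

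Of 9 tested genes of the MYC family and its partners, 1 was higher and 3 were lower (median -0.13). The list was not split into genes that act with MYC and genes that act against it, so its median gives no direction of MYC activity. Mycn had 29.3, 32.5, 20.98 and 25.6 CPM in normoxia and 11.5, 13.9, 15.1 and 12.9 CPM in hyperoxia (log2 fold change -1.02 ± 0.14 SE, adjusted p = 0.000219), Mxi1 was lower (log2 fold change -0.57 ± 0.056 SE, adjusted p = 2.8e-05), and Mxd4, the most abundant, did not pass the test (log2 fold change -0.032 ± 0.048 SE, adjusted p = 0.639). Of 14 genes of ribosome quality control, 3 were higher and 3 lower (median 0.049). Map3k20, the kinase that senses stalled ribosomes, rose (log2 fold change 0.56 ± 0.045 SE, adjusted p = 6.59e-06), Rnf10, which marks small subunit proteins with ubiquitin, rose slightly (log2 fold change 0.12 ± 0.037 SE, adjusted p = 0.0281), and the ubiquitin ligase Ltn1 fell (log2 fold change -0.27 ± 0.046 SE, adjusted p = 0.0012).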

How the data were processed

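The authors deposited whole-number gene counts and FPKM for the same genes; the submitters' processing notes name HISAT2 2.0.5, featureCounts 1.5.0-p3 and mm10, and strand and multi-mapping treatment are not given in the sources used here. Counts were tested in R 4.3.3 with edgeR 4.0.16 (TMM, filterByExpr at its defaults, quasi-likelihood test, group as the only term), with Benjamini-Hochberg adjustment over 15564 genes and calls at 0.05. SE is the log2 fold change divided by the root of F. FPKM served to compare levels between genes and, as log2(FPKM + 1), in limma 3.58.1. DESeq2 1.42.0, used by the study, was an alternative here. Libraries of a group differed by 5.09 to 18.4 times counting noise (chi-square per degree of freedom). Transcripts of GENCODE M21 and RefSeq starts gave sequences; 82 of the 84 members had the same coordinates in M21 as in the table.

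The fit was also run on simulated counts with known changes, which were larger than those of most members, and the outcome is not reported here. The members, the lists and the marker sets were chosen with earlier results of these data known. Members were named if they were among up to 8 largest rises or falls past the threshold, among the 5 highest in FPKM, past a log2 fold change of 1, dropped by the filter, or set by hand for their role. In other lists, the most abundant gene and up to 2 called genes with the largest change and at least 10 CPM on average were named. Gene rows Rps27rt, Gm12191, Rpl30-ps10, Rpl9, Rpl26, Rpl38, Rpl13a, Rps10 and Rpl24 were named after their values were seen. Some genes that met these rules are not reported here by name, though counts over members and lists include them.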

Additional observations from a re-analysis of the deposited data

Results flagged for a closer look

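With 4 libraries per group, a library was singled out where its gap to the nearest other library, divided by the range of the group, exceeded Dixon's 95% critical value. Of 70 groups examined (the share of counts, 4 paralog ratios and 30 named members, in normoxia and in hyperoxia), 2 met this rule, where chance gives about 1 in 20. In normoxia 1 the log2 ratio of Rps27l to Rps27 was the lowest of its group, with a gap of 0.903 of the range. In normoxia 3 Rps27a was the highest of its group at 131 CPM, with a gap of 0.833 of the range. Neither touches the direction of a call.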

How the results depend on the processing

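The count of members called higher was 3 or 4, the count called lower 16 to 40, and the median -0.18 to -0.094 over 21 alternatives: other normalizations, filters and tests, a replicate block, a length correction, protein-coding genes only, leaving out each library, and copies summed, the last chosen after seeing the data. Leaving out 1 library gave 3 to 4 higher and 16 to 40 lower members (16 without hyperoxia 2 or hyperoxia 3, 40 without normoxia 2), a median of -0.18 to -0.094, and a share difference of -0.337 to -0.156 percentage points, where the smallest came without normoxia 3. The 1 member lower at a log2 fold change of at least 1, Rps27 at -1.003, became 0 members without a filter, with at least 10 CPM in 4 libraries, with the length correction and with copies summed, and 0 to 1 when a library was left out. The other lists held 44 higher and 29 lower genes, with 34 to 50 and 22 to 34 over the alternatives. Apart from the fit with copies summed, the share of all genes called is not given for the alternatives. Their counts are therefore not set against a share.

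For 30 named members, 629 refits gave 580 values of the same direction and side of the threshold, 11 that lost the call, 26 that gained one and 12 of the other sign. The changes of sign were in 5 genes, none of them called. Rplp0 was at 0.0042 without a filter, 0.0028 with the strict filter and 0.00079 in limma on FPKM. With 1 library left out, Rplp0 ran from -0.048 to 0.053, Rplp1 from -0.033 to 0.095, Rpsa from -0.0045 to 0.14, Rpl39 from -0.12 to 0.049 and Rpl36al from -0.081 to 0.65.

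Replicate numbers did not pair the libraries: the correlation of deviations of same-numbered libraries was 0.12, 0.036, -0.13 and -0.14. With the replicate number as a block, 19 members were lower and 4 higher, and the share of all genes called in that fit is not given here. Permuted within numbers, the paralog ratios kept their differences of 2.14 (Rps27l), -0.29 (Rpl22l1), 0.56 (Rpl7l1) and -0.40 (Rps4l) at p = 0.125 (exact), the smallest that 4 blocks allow. Without 1 library the smallest exact p is 0.0571, which all 4 ratios reached, at differences of 1.97 to 2.37, -0.33 to -0.23, 0.52 to 0.59 and -0.44 to -0.35.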
